A study of Mus musculus with 6 samples.

Results

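The genes described here encode proteins of the synaptic vesicle, of the active zone where vesicles fuse, and of the adhesion complexes that hold a synapse together. They were 34 genes chosen by name from the 20175 gene rows of a normalised count table of mouse retina on postnatal day 2 (P2), and all 34 had a row. They are described in 4 groups, namely 15 genes of the general release machinery, 7 of the active zone, 7 of adhesion and scaffolding, and 5 paralogs known from photoreceptor ribbon synapses or from amacrine cells. The samples were 3 control retinas (genotype given as Control) and 3 retinas of Zeb2 loxp/loxp αCre mice (given as Zeb2-Mutant), all taken at P2 and sequenced from poly-A RNA. The αCre driver uses an enhancer of Pax6 that is active in progenitors of the peripheral retina, so cells of the central retina keep an intact Zeb2. Which alleles the controls carry, the strain, and whether animals were pooled are not given in the sources used here.

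Vesicles are filled with transmitter by a vesicular transporter, docked and primed at the active zone by RIM and UNC13 proteins, and fused when calcium entering through a voltage-gated channel acts on synaptotagmin and the SNARE proteins. Photoreceptors and bipolar cells use a ribbon synapse, which releases continuously and has its own set of paralogs: syntaxin 3 in place of syntaxin 1, complexins 3 and 4 in place of 1 and 2, the L-type channel Cav1.4, and the glutamate transporter VGLUT1. Amacrine cells form conventional synapses, and in the newborn mouse retina these form before the ribbon synapses of photoreceptors do.

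Reads on genes numbered 26041200 to 32614805 per library, and every member had between 112 and 22246 reads in every library. No label ties the replicates to separate animals, so the tests weigh a difference against sample-to-sample spread alone, part of which may be technical. Zeb2 itself was lower in each mutant library (5581.4, 4273.6 and 5049.7 normalised counts) than in any control library (5989.7, 6448.7 and 5916.7), at 81.2% of the control mean, a difference that was not called (limma adjusted p = 0.129). No marker of photoreceptors, amacrine, horizontal or ganglion cells was at 0 in every library. Mesenchyme markers summed to 94.8 to 579.1 normalised counts in controls but to 6190.0, 2138.2 and 128.0 in mutant libraries 1, 2 and 3, and astrocyte markers to 461.2 to 901.3 in controls and to 5928.0, 4516.5 and 741.4 in mutants. Because these are whole-tissue samples, a change in the number of cells of a type and a change in RNA per cell cannot be told apart.

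Both called members were ribbon paralogs. Stx3 and Cplx4 rose 1.71-fold and 1.77-fold in mutant retina, and no other member passed an adjusted p of 0.05 (limma, Benjamini-Hochberg over 16064 genes averaging 10 or more normalised counts, a filter that all 34 passed). That is 2 of 34 members higher and 0 lower, where 0.928% of all genes tested were called higher and 0.218% lower (1.15% in all). At an unadjusted limma p under 0.05 the count was 7 members higher and 3 lower, where 9.01% of all genes were higher and 8.31% lower (17.3% in all). On reads recovered from the table, edgeR called the same 2 members, where it called 1.12% of all genes. DESeq2 called 6 members, 4 of them ribbon paralogs, where it called 5.44% of all genes. Without mutant library 1, limma called 5 members and 3.74% of all genes. Log2 fold changes had a median of 0.57 in the 5 ribbon and amacrine paralogs, 0.016 for the release machinery, -0.080 for the active zone and -0.10 for adhesion and scaffolding, beside -0.0067 over all genes tested. The 3 mutant values lay all above or all below the 3 control values for 10 members, 7 higher and 3 lower, and did so for 11.5% (higher) and 11.7% (lower) of all genes tested, 23.2% in all.

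**Figure D1:**
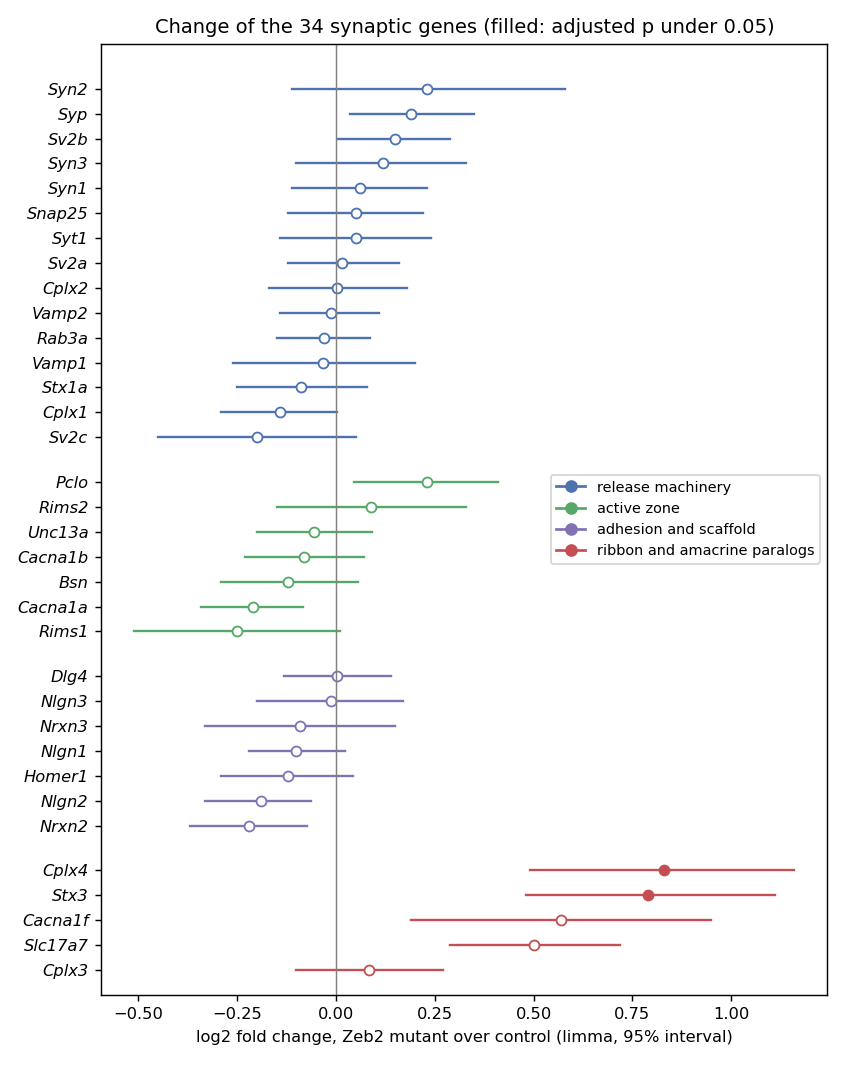
Log2 fold change of each of the 34 genes, Zeb2 mutant over control, on the log2(normalised count + 1) scale (points) with limma's 95% interval (bars), coloured by group; filled points passed an adjusted p of 0.05. Stx3 and Cplx4 are filled, and the intervals of Cacna1f, Slc17a7, Syp, Sv2b and Pclo also lie above 0. Those of Cacna1a, Nrxn2 and Nlgn2 lie below 0, and those of the other 24 members include 0.

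Stx3 (ENSMUSG00000041488; GRCm38 chromosome 19, 11775118 to 11819403, minus strand) encodes the syntaxin of ribbon synapses. Its normalised count was 1689.9, 1653.3 and 2461.6 in controls and 3153.1, 3185.1 and 3574.0 in mutants. All 3 mutants lay above all 3 controls, and control library 3 was the nearest to them. The means were 1934.9 ± 456.5 and 3304.1 ± 234.3 (SD, n = 3 each), a log2 fold change of 0.79 ± 0.139 (SE; limma adjusted p = 0.0370). The call was lost when control library 1 or 2 was left out (limma adjusted p = 0.161 and 0.0784) and when mutant library 2 or 3 was left out (0.130 and 0.109), at log2 fold changes of 0.69 to 0.82.

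Cplx4 (ENSMUSG00000024519; chromosome 18, 65955722 to 65970237) encodes complexin 4, a regulator of SNARE-driven fusion found in photoreceptor terminals. It had 126.7, 117.5 and 158.2 normalised counts in controls and 209.2, 258.3 and 245.8 in mutants. The groups did not overlap, with control library 3 again the highest control. Means were 134.1 ± 21.3 and 237.8 ± 25.5 (SD, n = 3 each), a log2 fold change of 0.83 ± 0.147 (SE; limma adjusted p = 0.0385). This call too was lost on leaving out control library 1 (limma adjusted p = 0.169), control library 2 (0.0924), mutant library 2 (0.155) or mutant library 3 (0.111), and under quantile normalisation (0.0568).

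Slc17a7 (ENSMUSG00000070570; chromosome 7, 45163949 to 45176142) encodes VGLUT1, which loads glutamate into vesicles. Its values were 1606.8, 1524.3 and 1695.8 in controls and 1955.9, 2591.0 and 2343.1 in mutants, so that every mutant exceeded every control. The 1.43-fold difference, a log2 fold change of 0.50 ± 0.0959 (SE), just missed the threshold (limma adjusted p = 0.0504). It passed without mutant library 1 (adjusted p = 0.00601) and with DESeq2 on recovered reads (adjusted p = 2.49e-05). With edgeR it did not pass, nor in limma when control library 1, 2 or 3 or mutant library 2 or 3 was left out.

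Cacna1f (ENSMUSG00000031142; chromosome X, 7607083 to 7635196), the gene of the Cav1.4 channel subunit, had 456.8, 328.4 and 439.2 in controls against 479.7, 716.0 and 626.6 in mutants. Mutant library 1 lay close to control library 1, and the other 2 mutants lay well above. The log2 fold change of 0.57 ± 0.167 (SE) did not pass over all genes (limma adjusted p = 0.132). Cacna1f did pass without mutant library 1 (limma adjusted p = 0.0407) and with DESeq2 (adjusted p = 0.0127), but not with edgeR or with any other library left out. Cplx3, the complexin of cones, bipolar cells and some amacrine cells, showed a different pattern. It had 4155.0, 3384.3 and 3874.0 in controls and 4121.0, 3702.7 and 4259.5 in mutants, with overlapping groups and a log2 fold change of 0.085 whose 95% interval ran from -0.10 to 0.27 (limma adjusted p = 0.649).

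**Figure D2:**
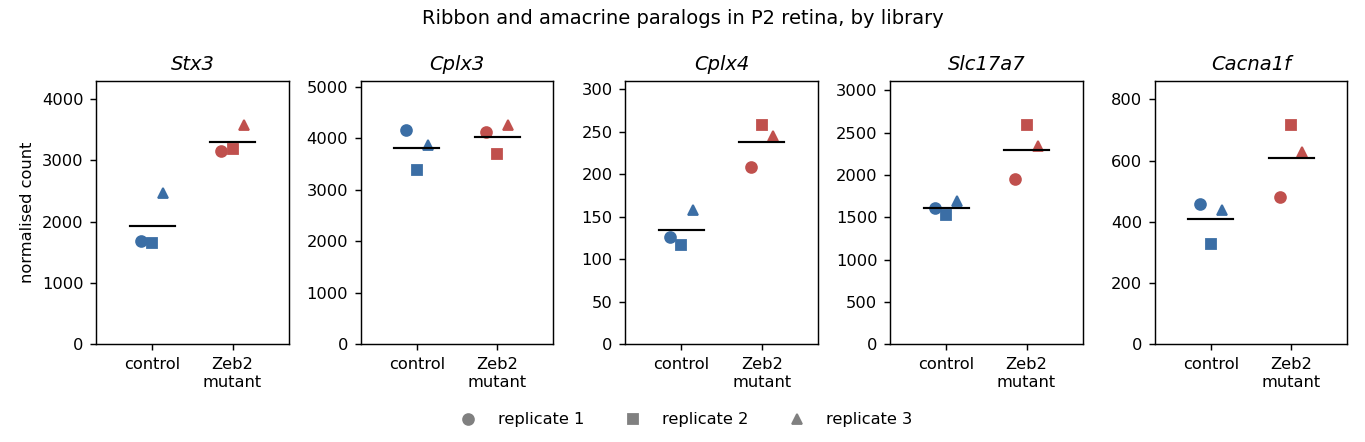
Normalised counts (linear axes from 0) of the 5 ribbon and amacrine paralogs in each of the 6 libraries, with the group mean as a line and the replicate number as the marker shape. For Stx3, Cplx4, Slc17a7 and Cacna1f the mutant points all lie above the control points, while for Cplx3 the groups overlap.

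Photoreceptor markers moved with this group. All 16 tested photoreceptor markers had positive log2 fold changes, with a median of 0.58. Of these, 4 were called higher, where 0.928% of all genes tested were. Their summed level was 92981.9 to 107120.1 normalised counts in controls and 102710.3 to 125087.9 in mutants for the 16 markers. By library, the median log2 difference from the control mean was 0.40, 0.74 and 0.59 for these markers in mutants 1, 2 and 3, and 0.28, 0.74 and 0.63 for the ribbon and amacrine paralogs. In controls 1, 2 and 3 the medians were -0.034, -0.10 and 0.20 for the markers and -0.00058, -0.18 and 0.12 for the paralogs. The part that these cells have in the values of Stx3, Cplx4, Slc17a7 and Cacna1f was not tested. Bipolar markers, the other ribbon-bearing class, had a median of 0.025 over 4 tested genes, with no gene called. This list says little about bipolar cells at P2. Grm6 had no row, Vsx1 was below the filter, and Nyx was low (means 19.6 in controls and 30.9 in mutants). Trpm1 had 970.4 in control library 2 beside 128.8 and 143.0 in control libraries 1 and 3. Summed mesenchyme and astrocyte markers lay within the control range in mutant library 3 and above it in mutant libraries 1 and 2. Their part in the paralog values was not tested.

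Promoter windows are shown for 3 of the 4 paralogs that stood higher in every mutant, with that of Stx1a, the syntaxin of conventional synapses, for comparison. No window is shown for the other paralog, Cplx4, although it was a called member. Each is 300 bases, 250 before and 50 after a RefSeq gene start (GRCm38.p6), 5′ to 3′ on the gene's strand, and such windows were found for 26 of the 34 genes. Capitals mark TAATCC, the core recognised by the photoreceptor homeodomain factors CRX and OTX2, and CACCT, the core recognised by ZEB factors, on either strand (so that a match on the other strand reads GGATTA or AGGTG).
Stx3 promoter window, chr19:11819354-11819653, minus strand: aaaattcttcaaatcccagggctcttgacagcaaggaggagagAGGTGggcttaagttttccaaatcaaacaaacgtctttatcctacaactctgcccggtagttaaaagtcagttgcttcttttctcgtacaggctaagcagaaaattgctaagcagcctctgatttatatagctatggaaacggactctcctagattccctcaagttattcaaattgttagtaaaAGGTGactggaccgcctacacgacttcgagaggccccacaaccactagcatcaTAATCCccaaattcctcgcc
Slc17a7 promoter window, chr7:45163671-45163970, plus strand: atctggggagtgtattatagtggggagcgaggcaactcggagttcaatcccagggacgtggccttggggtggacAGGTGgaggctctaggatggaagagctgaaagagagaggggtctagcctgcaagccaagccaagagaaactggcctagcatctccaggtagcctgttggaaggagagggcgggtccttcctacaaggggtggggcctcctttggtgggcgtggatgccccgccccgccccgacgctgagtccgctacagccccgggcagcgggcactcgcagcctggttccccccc
Cacna1f promoter window, chrX:7606853-7607152, plus strand: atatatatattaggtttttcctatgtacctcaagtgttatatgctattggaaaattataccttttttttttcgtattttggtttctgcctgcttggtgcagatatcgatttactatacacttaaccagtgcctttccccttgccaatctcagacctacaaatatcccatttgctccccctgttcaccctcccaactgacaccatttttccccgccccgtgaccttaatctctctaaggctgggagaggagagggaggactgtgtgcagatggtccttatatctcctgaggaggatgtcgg
Stx1a promoter window, chr5:135023232-135023531, plus strand: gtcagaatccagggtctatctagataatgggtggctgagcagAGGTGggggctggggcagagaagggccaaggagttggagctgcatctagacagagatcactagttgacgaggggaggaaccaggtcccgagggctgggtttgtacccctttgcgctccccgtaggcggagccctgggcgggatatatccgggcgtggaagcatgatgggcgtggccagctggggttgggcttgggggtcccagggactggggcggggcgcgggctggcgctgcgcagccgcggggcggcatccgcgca
The Stx3 window held 1 TAATCC and 2 CACCT matches, those of Slc17a7 and Stx1a 1 CACCT each, and that of Cacna1f neither. TAATCC was present in 5 of the 38 member windows (13.2%) and in 7.06% of all 32851 windows of that length. The 5 windows belonged to only 4 of the 26 genes, since a gene can have more than 1 window, and the shares were not tested. CACCT was present in 22 member windows (57.9%) and in 51.9% of all windows. The 6-base form CACCTG, which contains CACCT, was present in 9 member windows (23.7%) and in 20.2% of all. A match describes these letters only, and binding was not measured.

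Levels can be set side by side per kilobase of merged exons. On that scale Stx1a had 375.8 ± 33.0 normalised counts per kb in controls and Stx3 338.8 ± 79.9, which did not differ beyond their spread (SD, n = 3 each). In mutants they stood at 352.9 ± 13.0 and 578.5 ± 41.0. The ratio of Stx3 to Stx1a per kb was 0.797, 0.839 and 1.05 in controls and 1.50, 1.60 and 1.83 in mutants, all mutants above all controls. Among complexins the order in controls was Cplx2 (3631.0 per kb), Cplx3 (1288.3), Cplx1 (756.4) and Cplx4 (69.1), and it was the same in mutants. Cplx4 was thus the rarest complexin in both groups, and its ratio to Cplx3 went from 0.0464, 0.0528 and 0.0621 in controls to 0.0772, 0.106 and 0.0878 in mutants.

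The calcium channel and transporter genes gave the same kind of ratio. Cacna1f per kb was 0.452, 0.326 and 0.437 of Cacna1a in controls and 0.528, 0.808 and 0.762 in mutants. Slc17a7 was 1.56, 1.60 and 1.69 times its paralog Slc17a6, the transporter VGLUT2 of ganglion cells, in controls and 1.86, 2.44 and 2.07 times in mutants. By contrast Vamp2 stood about 100-fold above Vamp1 per kb in both groups, at ratios of 91.8 to 106 in controls and 94.3 to 109 in mutants. Of 9 ratios computed, chosen after the values were seen, 6 did not overlap between groups. Each of these gave p = 0.1 in an exact 2-sided permutation test of 3 against 3 libraries, the smallest it allows, and 0.15 after Benjamini-Hochberg adjustment over the 9. Their first genes (Stx3, Cplx4, Cacna1f and Slc17a7) were themselves higher in every mutant than in any control. The 6 ratios thus reuse those values and are no further support.

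**Figure D3:**
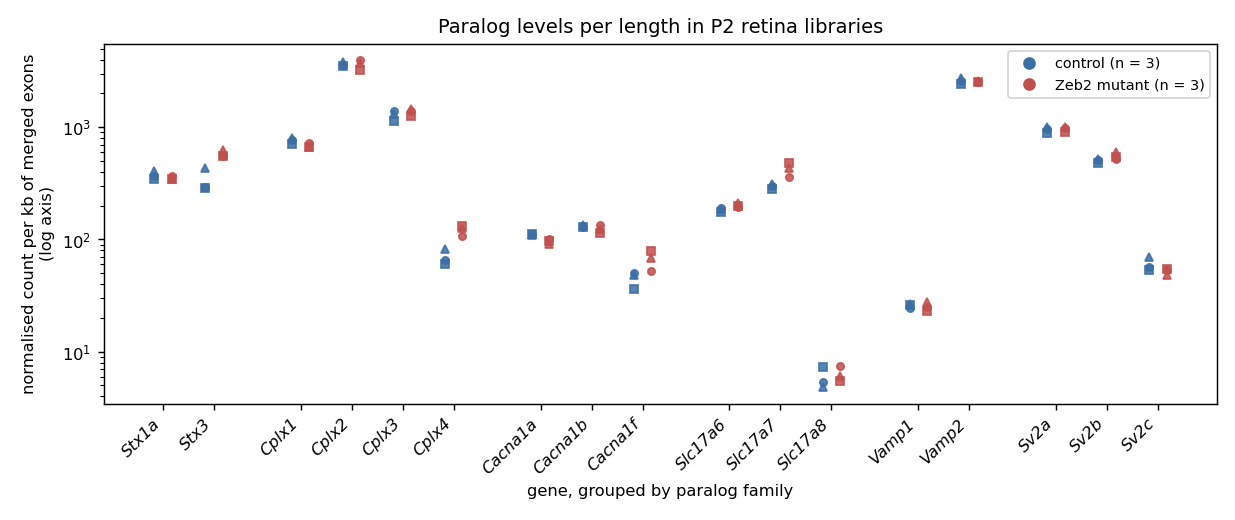
Normalised count per kb of merged exons (log axis) in every library for 6 families of paralogs, control in blue and Zeb2 mutant in red, with the replicate number as the marker shape. Stx3 lies level with Stx1a in controls and above it in mutants, and Cplx4 stays the lowest complexin in both groups.

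In the general release machinery none of 15 genes was called by limma or DESeq2. Of these, 9 had positive and 6 negative log2 fold changes, and the range was -0.20 to 0.23. The limma 95% intervals of the whole group lay between -0.45 and 0.58. Cplx2, the most abundant member by normalised count and per length, had 17629.5, 17225.8 and 18824.8 in controls and 19461.9, 16001.9 and 18443.8 in mutants. Its groups overlapped fully, and its log2 fold change of 0.0023 had a 95% interval of -0.17 to 0.18 (limma adjusted p = 0.991).

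Syp and Sv2b had the smallest p in this group. Syp, which encodes the vesicle membrane protein synaptophysin, had 10660.1, 9658.9 and 10608.9 in controls and 10694.6, 12381.4 and 12320.6 in mutants. Mutant library 1 was only just above the highest control, and the log2 fold change of 0.19 ± 0.0695 (SE) did not pass (limma adjusted p = 0.201). Sv2b, a vesicle glycoprotein gene expressed by photoreceptors among other neurons, had 4292.4, 4026.4 and 4371.5 against 4393.7, 4599.6 and 5089.3. Its groups were likewise separated by a narrow gap, at a log2 fold change of 0.15 ± 0.0624 (SE; limma adjusted p = 0.268). Syp lies 3275 bases from Cacna1f on chromosome X with no other gene of the table between them.

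The remaining 13 release genes had overlapping groups. Among SNARE genes, the log2 fold change was 0.051 for Snap25, -0.013 for Vamp2, -0.033 for Vamp1 and -0.087 for Stx1a, each with a 95% interval inside -0.26 to 0.22. Syt1, the calcium sensor of fast release, stood at 0.050 (interval -0.14 to 0.24), and Rab3a, the vesicle GTPase that binds RIM, at -0.031 (-0.15 to 0.087). The synapsins, which cluster vesicles at conventional synapses and are known to be missing from ribbon terminals, gave 0.061 for Syn1, 0.23 for Syn2 and 0.12 for Syn3. Syn2 had the widest interval of the release genes (-0.11 to 0.58), with a control library 2 at 226.6 beside 333.3 and 327.5 in the other 2 controls. Sv2a and Sv2c, paralogs of Sv2b, gave 0.016 and -0.20, and Cplx1, the complexin of conventional synapses, gave -0.14, with an interval of -0.29 to 0.0028.

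**Figure D4:**
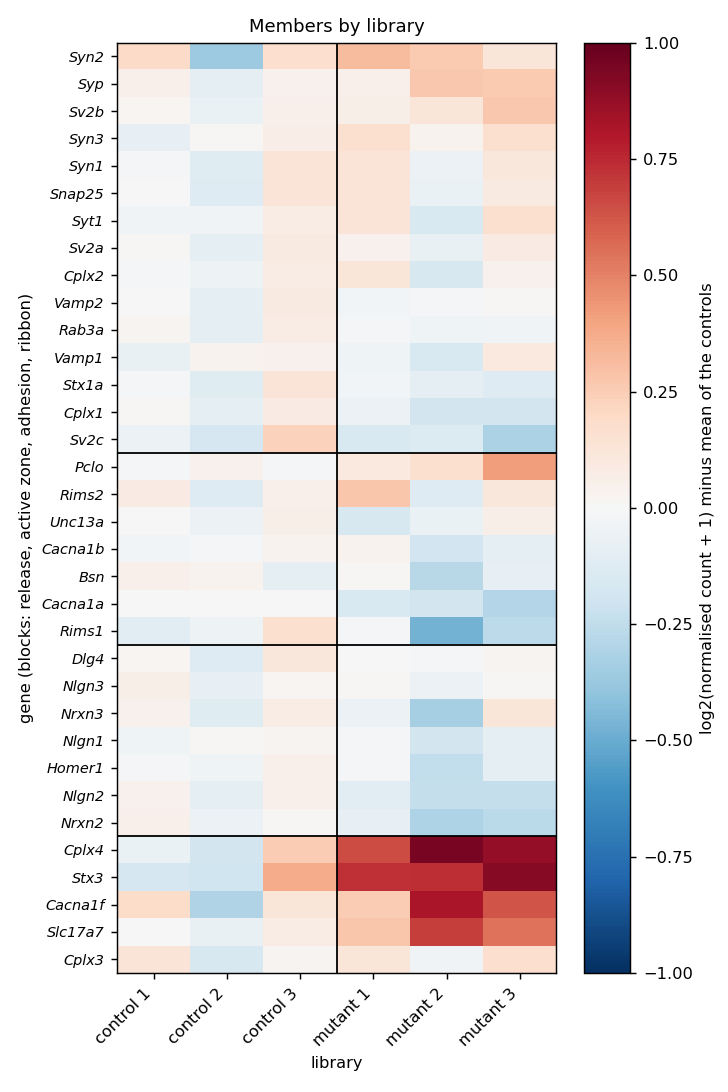
Each gene's log2(normalised count + 1) in each library minus the mean of the 3 controls, from blue (lower) to red (higher), in 4 blocks by group. Red is deepest in the mutant columns for Cplx4, Stx3, Cacna1f and Slc17a7, and mutant library 2 is the bluest for the active zone and adhesion blocks, with medians of -0.18 and -0.24.

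Among the 7 active zone genes none was called, 2 had positive and 5 negative log2 fold changes. Cacna1a, which encodes the Cav2.1 channel subunit of P/Q-type current, was nearly uniform in controls, at 1269.3, 1267.3 and 1261.7, and had 1142.3, 1113.6 and 1032.9 in mutants. All mutants lay below all controls, at 86.6% of the control mean and a log2 fold change of -0.21 ± 0.0558 (SE), which did not pass over all genes (limma adjusted p = 0.106). Pclo, the gene of the large scaffold piccolo, went the other way, with 2128.6, 2233.5 and 2129.9 in controls and 2314.1, 2425.6 and 2891.5 in mutants. The groups were separate and mutant library 3 the highest, at a log2 fold change of 0.23 ± 0.0795 (SE; limma adjusted p = 0.190). Mutant library 3 alone stood at a log2 difference of 0.42 from the control mean.

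Bsn, the gene of the scaffold bassoon that anchors the ribbon, was the most abundant active zone gene by normalised count. It had 3059.3, 3016.1 and 2775.6 in controls and 2967.2, 2435.3 and 2785.9 in mutants, with overlapping groups and a log2 fold change of -0.12 (95% interval -0.29 to 0.057). Rims1 and Rims2, whose products tie calcium channels to docked vesicles, stood at -0.25 and 0.088. Rims1 was the least even among mutants, with 2794.9, 2033.7 and 2352.2, and its interval of -0.51 to 0.0098 was the widest of the active zone group. Unc13a, the priming factor, and Cacna1b, the Cav2.2 subunit of N-type current, stood at -0.056 and -0.080, with 95% intervals inside -0.23 to 0.091.

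Of the 7 adhesion and scaffold genes none was called, and 6 had negative log2 fold changes. Nrxn2, the most abundant by normalised count, encodes a presynaptic neurexin. It had 8718.9, 8107.3 and 8507.8 in controls and 7970.5, 6791.1 and 7006.8 in mutants. The groups did not overlap, at 85.9% of the control mean and a log2 fold change of -0.22 ± 0.0654 (SE; limma adjusted p = 0.132). Nrxn2 was called without mutant library 1 (limma adjusted p = 0.0296) and with DESeq2 (adjusted p = 0.0309), but not with edgeR or with any other library left out. Nlgn2, the neuroligin of inhibitory synapses, had 8052.3, 7308.9 and 8067.8 in controls and 7233.0, 6612.1 and 6621.9 in mutants, again without overlap. Its log2 fold change was -0.19 ± 0.0581 (SE; limma adjusted p = 0.137, DESeq2 adjusted p = 0.0400). Neither edgeR nor limma with any library left out called Nlgn2.

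Nlgn1, the neuroligin of excitatory synapses, stood at -0.10, and Nlgn3 at -0.012. Nrxn3 stood at -0.090, with mutant values of 1944.3, 1609.0 and 2201.9 on both sides of the controls (1867.4 to 2133.3). Homer1, which links glutamate receptors to the postsynaptic scaffold, stood at -0.12. Dlg4, the gene of PSD-95, which in retina is also found in photoreceptor terminals, had means of 6167.1 ± 502.9 and 6171.1 ± 89.4 (SD, n = 3 each), with an interval of -0.13 to 0.14. Reads of Nlgn3 are uncertain, because 41.2% of its exon length is shared with another annotated gene, as are those of Syp (16.8%) and Syn3 (14.1%), which share exon bases with genes on the opposite strand.

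Markers of inhibitory interneurons were mixed, with more of them lower than higher. The 9 amacrine markers had a median log2 fold change of -0.34, 7 negative and 1 called lower (Tfap2c), and summed to 35311.4 to 37084.1 normalised counts in controls and 24457.3 to 31910.6 in mutants. The 6 horizontal cell markers had a median of -0.52, with 2 called lower (Lhx1 and Onecut3), and summed to 5663.9 to 5837.1 in controls and 4154.5 to 5324.0 in mutants. Of all genes tested, 0.218% were called lower. In mutant library 2 the amacrine markers were lowest (median log2 difference from controls -0.49), as were the adhesion and active zone medians (-0.24 and -0.18). Against the majority, Gad2, a GABA-synthesising enzyme gene on the amacrine list, and Calb1, a calcium-binding protein gene on the horizontal list, were higher in all 3 mutants than in any control (1.31-fold and 1.28-fold, limma adjusted p = 0.0858 and 0.222). Calb2, on the amacrine list, stood at a log2 fold change of 0.0064. The part of these cells in the values of Nrxn2, Nlgn2 and Cacna1a was not tested. The 7 ganglion cell markers had a median of 0.10, with no gene called.

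The other marker lists held 1 called gene, where 0.218% of all genes tested were called lower and 0.928% higher. This was the Müller glia and progenitor gene Sox9, which fell (log2 fold change -0.28, limma adjusted p = 0.0379, list median 0.035 over 6 genes). All 6 dividing progenitor markers had negative log2 fold changes (median -0.15). For 3 of them all mutants lay below all controls, as they did for 11.7% of all genes tested. The 6 markers summed to 56030.9 to 57946.9 normalised counts in controls and 46855.1 to 54584.8 in mutants. All 6 microglia markers had positive log2 fold changes (median 0.39). For 1 of them all mutants lay above all controls, as they did for 11.5% of all genes tested. The microglia markers summed to 1135.0 to 2101.3 in controls and 1857.7 to 2275.7 in mutants. The 4 astrocyte and 5 mesenchyme markers were all positive too (medians 1.08 and 2.21). Pigment epithelium and endothelium markers had medians of 0.20 over 5 genes and -0.084 over 4. The part of these cells in the members' values was not tested.

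Beyond the members, 128 other synaptic genes were followed, all with a row and all tested. Of these, 5 rose and 0 fell at an adjusted p of 0.05 (limma; 39 had an unadjusted p under 0.05, 19 higher and 20 lower), and their median log2 fold change was -0.0041. Over all genes tested, 0.928% were called higher and 0.218% lower, and 9.01% and 8.31% were higher and lower at an unadjusted p under 0.05. The list was chosen with earlier results known, and its counts are a description only. Flrt1, a synaptic adhesion gene, had 177.8, 138.5 and 165.0 normalised counts in controls and 262.1, 393.8 and 307.7 in mutants. It rose 2.00-fold, a log2 fold change of 0.98 ± 0.164 (SE; limma adjusted p = 0.0309). Syt17, a synaptotagmin relative, rose 1.94-fold, from 158.7, 162.6 and 172.6 to 284.2, 409.3 and 265.1 (limma adjusted p = 0.0370). For both genes every mutant lay above every control, and mutant library 2 was the highest.

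Unc13c, a paralog of Unc13a, rose 1.49-fold, from 560.1, 521.4 and 561.0 to 730.2, 900.8 and 808.4 (limma adjusted p = 0.0240). Cacna2d1, an auxiliary calcium channel subunit gene, rose 1.35-fold, from 881.7, 919.0 and 945.2 to 1153.9, 1269.4 and 1277.7 (limma adjusted p = 0.0218). Rab3b, a paralog of Rab3a, rose 1.33-fold, from 748.6, 727.0 and 784.4 to 1029.2, 1053.6 and 926.3 (limma adjusted p = 0.0309). Of these 5 calls 0 were left without control library 1 or 2, 0 without control library 3, 0 without mutant library 2, and only that of Rab3b without mutant library 3. Without control library 1, the limma adjusted p was 0.106 for Flrt1, Unc13c and Cacna2d1, 0.161 for Syt17 and 0.149 for Rab3b. Without mutant library 2 it was 0.0637 to 0.117 for the 5 genes, without control library 2 0.0538 to 0.0895, and without control library 3 0.0510 to 0.0784. Elfn1, an adhesion gene of photoreceptor terminals, had the second smallest p of its list (log2 fold change 0.34, limma adjusted p = 0.0586).

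**Figure D5:**
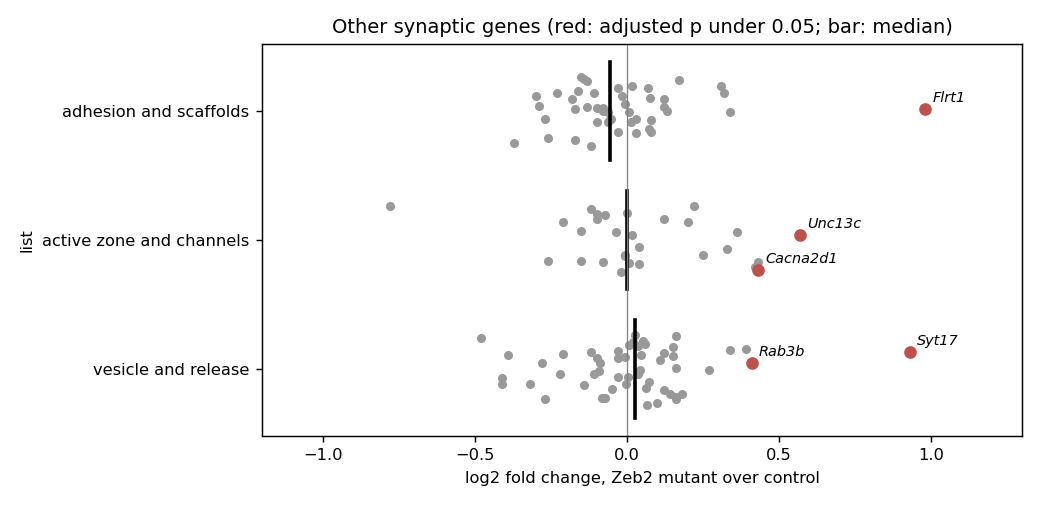
Log2 fold change of 128 other synaptic genes, Zeb2 mutant over control, in 3 lists (rows; vertical scatter within a row has no meaning), with the median of each list as a bar. The 5 red points passed an adjusted p of 0.05 and all lie to the right of 0, and the medians of the lists lie between -0.054 and 0.027.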

How the data were processed

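RNA of 6 retina samples was sequenced as poly-A libraries, per the labels' protocols. The deposited table holds a normalised count signal per gene, per the file headers; tools listed without roles, per the submitters' processing notes, are HTSeq, DESeq2, STAR 2.4.2a and cutadapt, with the build GRCm38. No source used here gives the strand setting. In every library 100% of values lay within 0.06 of whole multiples of 1 step, so whole reads were recovered.

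Groups were compared on the log2(normalised count + 1) scale using limma 3.58.1 with trended variance in R 4.3.3, over 16064 genes with a mean of at least 10, without covariates, 2-sided, called at a Benjamini-Hochberg adjusted p under 0.05. This scale understates changes of low genes. edgeR 4.0.16 called 180 genes on the recovered reads, against 184, and both of the same members. DESeq2 1.42.0 was a further alternative and called 874 (5.44%). Steps were tested on simulated data. Ratios used an exact permutation test (SciPy 1.17.1).

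Exon lengths came from GENCODE M21 (20122 of 20175 IDs matched), promoter windows from RefSeq. The members, lists and alternatives were chosen with earlier results of these data known. The naming rule gave library values for called members and, per group, for the most abundant member and the 2 with the smallest p; of other synaptic genes it named those called and 2 per list. Rims1, Nrxn3, Syn2 and Slc17a6 were given library values after these were seen. Of 81 cell type markers, 2 had no row and were not analysed here.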

Additional observations from a re-analysis of the deposited data

How the results depend on the processing

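With 2 members called in all, the count was 1 under quantile normalisation (Stx3), 6 with DESeq2 (4 higher, 2 lower), 0 at an adjusted p under 0.01, and 0 to 5 with 1 library left out. Leaving out mutant libraries 1 and 2 leaves only mutant library 3 against the controls, so no count is given for that setting. Its log2 difference from the control mean was 0.91 for Stx3, 0.88 for Cplx4, 0.54 for Slc17a7 and 0.42 for Pclo. Of the other synaptic genes 5 were called, 20 with DESeq2, 0 at an adjusted p under 0.01, 14 under 0.1, and 0 to 18 with 1 library left out. Over all genes 184 were called, 874 with DESeq2, 22 under 0.01, 701 under 0.1, and 27 to 600 with 1 library left out, the highest without mutant library 1 and the lowest without control library 1.

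The group medians ranged from 0.44 to 0.73 for the ribbon and amacrine paralogs, -0.14 to -0.036 for the active zone, -0.14 to -0.057 for adhesion and -0.017 to 0.091 for the release machinery. Of 34 members 22 kept 1 direction in all 18 alternatives. The other 12, none of them called, changed sign. With 1 library left out, the log2 fold change ranged from -0.00671 to 0.15 for Syt1, -0.013 to 0.11 for Snap25, -0.10 to 0.024 for Vamp1, -0.059 to 0.031 for Vamp2, -0.032 to 0.061 for Sv2a, -0.080 to 0.00448 for Rab3a, -0.058 to 0.083 for Cplx2, -0.010 to 0.19 for Rims2, -0.20 to 0.031 for Nrxn3, -0.052 to 0.018 for Nlgn3 and -0.059 to 0.059 for Dlg4. Scaling by library totals gave 0.00177 for Vamp2 and 0.00227 for Nlgn3, and quantile normalisation gave 0.014 for Vamp2. Without mutant libraries 1 and 2 the values were 0.094 for Vamp1, 0.00913 for Vamp2, 0.059 for Unc13a, 0.12 for Nrxn3 and 0.014 for Nlgn3. The cause was not tested.

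Deviations of same-numbered libraries correlated at 0.104, 0.242 and -0.142, and those of differently numbered libraries at -0.404 to 0.316. With 3 libraries per group, these values cannot tell whether the samples were paired. With the replicate number as a block, 2 members, 7 other synaptic genes and 248 genes in all were called. The call of Flrt1 was lost under the block (limma adjusted p = 0.0614) and under quantile normalisation (0.0501), and that of Rab3b under the block (0.0593). Every member had at least 112 reads in each library.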

Other observations

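The families of vesicular transporters and channel subunits had uneven values. Slc32a1, the vesicular transporter of GABA and glycine, had 1943.3, 1747.8 and 1907.4 normalised counts in controls and 1647.4, 1202.6 and 1384.3 in mutants, all mutants below all controls, and did not pass over all genes (log2 fold change -0.41 ± 0.104 (SE), limma adjusted p = 0.095). Slc17a6 stood at 0.12 (limma adjusted p = 0.331), and Slc17a8, the transporter VGLUT3, was low in both groups, at 27.7 ± 6.17 and 29.8 ± 4.56 (SD, n = 3 each). Slc17a7 was therefore the vesicular transporter gene with the highest fold change of these 4.

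Of the auxiliary calcium channel subunits, Cacna2d1 rose, Cacna2d2 stood at the same log2 fold change of 0.43 (limma adjusted p = 0.0572), and Cacna2d3 and Cacna2d4 stood at -0.26 and -0.10. Cacna2d4 and Cabp4 encode partners of Cav1.4 in photoreceptors. Cacna2d4 had overlapping groups (3207.2 ± 419.9 and 2974.7 ± 137.5; SD, n = 3 each). Cabp4, a low gene, stood at 24.5, 19.9 and 24.5 in controls and 24.3, 49.3 and 24.4 in mutants, with only mutant library 2 above the rest. Its log2 fold change of 0.42 had a 95% limma interval of -0.29 to 1.13, which holds the 0.57 of Cacna1f, and the genes were not tested against each other. Ctbp2, whose locus encodes the ribbon protein RIBEYE by an alternative start, stood at -0.072 (limma adjusted p = 0.435), and a count of the whole gene cannot separate the isoforms. Apba2, the gene of a presynaptic adaptor, had the lowest fold change of the 128 other synaptic genes. It had 8300.5, 7861.8 and 7791.9 in controls and 5556.0, 3502.4 and 5193.9 in mutants, 59.5% of the control mean, with every mutant below every control (limma adjusted p = 0.0505). These families were looked at after the values were seen.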
